A study of Mus musculus with 8 samples.

Results

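The genes described here are the 9 genes of the selenocysteine incorporation machinery, taken from the 23427 entries of an mRNA table by their symbols. The cells were primary oligodendrocyte precursor cells (OPCs, the progenitors that mature into the myelin-forming oligodendrocytes, OLs) of wild-type C57BL/6J mice, isolated from cortex (3 pups, postnatal day 7) with immunopanning plates, where an antibody to PDGFRα holds the precursors on the plastic. All groups shared this origin and genotype and differed in the day of culture, Day 0, Day 1, Day 2 or Day 3. The days were counted from the change to a differentiation medium without PDGF-AA and with the thyroid hormone T3 (40 ng/mL). Comparisons with Day 0 span both the time and this change of medium, which cannot be told apart. Each day had 2 replicates, described as independent in the paper, for 8 libraries in all. The methods also list sodium selenite, a source of selenium, in the medium in which the cells were grown, whereas the sample labels describe a serum medium. Stranded mRNA libraries were sequenced as 75-nt paired ends and given as FPKM, which counts fragments for each kilobase of transcript, relative to all fragments mapped in the library. The comparison asked whether any other gene of the machinery followed *Secisbp2l*, which the paper names *Sbp2l*, over the 4 days.

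Selenocysteine is an amino acid that is built on its own tRNA and inserted at UGA codons, which otherwise stop translation. A hairpin in the mRNA of a selenoprotein, the SECIS element, is bound by SECIS-binding protein 2 (encoded by *Secisbp2*), which recruits the elongation factor EEFSEC with the selenocysteine tRNA. The tRNA is first charged with serine, which the kinase PSTK phosphorylates and the synthase SEPSECS converts to selenocysteine with selenophosphate made by SEPHS2. *Secisbp2l* encodes a paralog of SECIS-binding protein 2, *Sephs1* a paralog of *Sephs2* without that activity, *Trnau1ap* a protein associated with the selenocysteine tRNA, and *Scly* the selenocysteine lyase that releases selenium from the free amino acid for reuse. Several selenoproteins, such as glutathione peroxidases and thioredoxin reductases, protect cells from oxidation.

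*Secisbp2l* changed most of the 9, from a mean of 33.4 FPKM on Day 0 to 336 FPKM on Day 3, a ratio of 10.1. *Scly* was the only other member called higher on Day 3, with a ratio of 1.86. *Sephs1*, *Eefsec* and *Pstk* were called lower, with ratios of 0.416, 0.354 and 0.333. *Secisbp2*, *Sephs2*, *Sepsecs* and *Trnau1ap* did not pass the test. Calls rested on limma's moderated test of log2(FPKM + 1), in which all 8 libraries shared an estimate of the spread, at a Benjamini-Hochberg adjusted p under 0.05 over the 12208 genes that reached an FPKM of 1 in 2 or more libraries. All 9 members passed that filter.

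**Figure D1:**
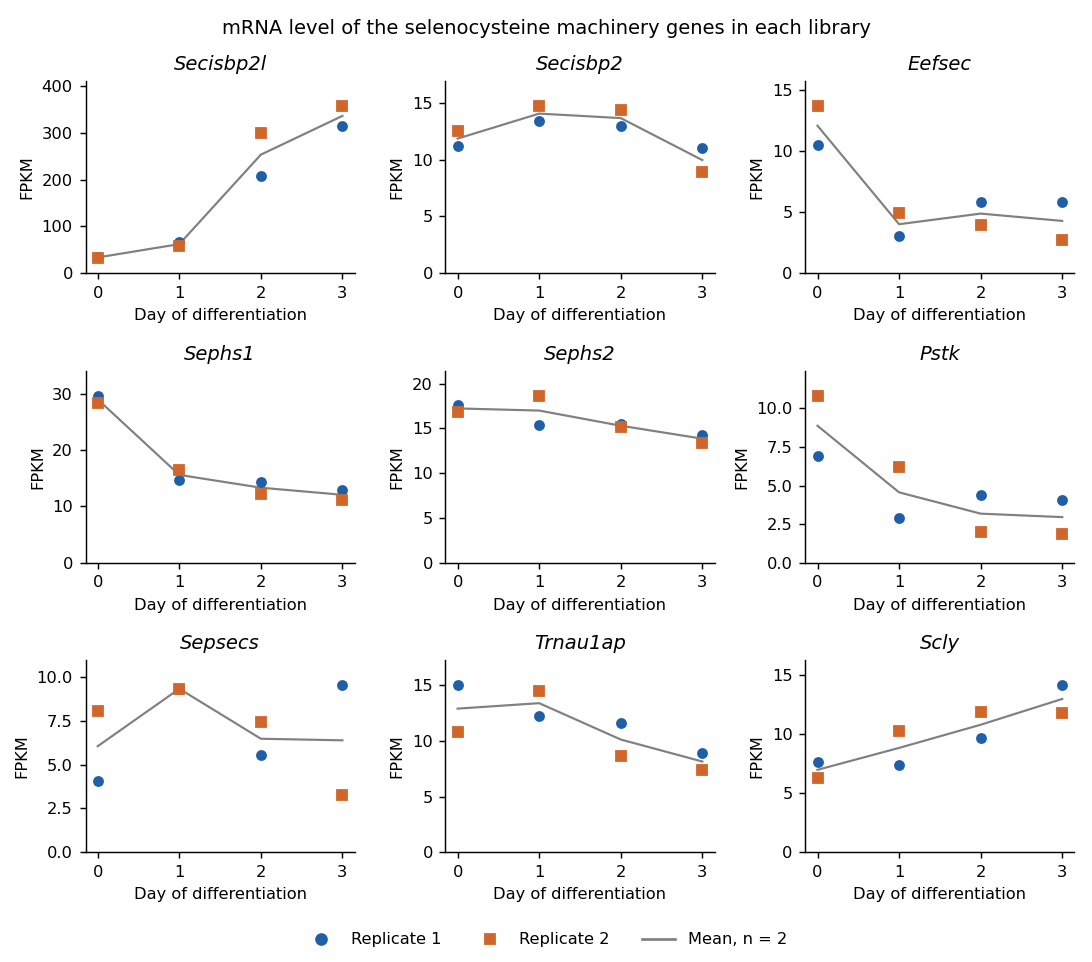
The level of each of the 9 genes in FPKM (y axis, from 0, with its own scale in each panel) against the day of differentiation (x axis), with a point for each library and a line through the mean of the 2 replicates. *Secisbp2l* rises to 315 and 357 FPKM on Day 3, *Scly* rises to 14.1 and 11.8 FPKM, and the other 7 genes end at 14.3 FPKM or less.

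Of the 9 members, 2 were higher on Day 3 than on Day 0, where 12% of all genes tested were, and 3 were lower, where 26.3% of all genes tested were. The median change of the machinery was -0.30 on the log2 scale and that of all genes tested was -0.31. The log2 scale here is that of FPKM + 1, which understates the change of low genes. The split of all calls depended on how libraries were scaled, since 31.3% of the genes called between Day 0 and Day 3 were higher with FPKM as deposited and 51.1% were higher after scaling by median ratios, which moved the median change of all genes to -0.04. Both rises and the falls of *Sephs1* and *Eefsec* were called under either scaling. In bulk RNA, fewer cells of a type and less RNA per cell cannot be told apart.

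The precursor and oligodendrocyte markers followed the labels, all 5 precursor markers being lower and all 8 oligodendrocyte markers higher on Day 3 than on Day 0. The precursor markers summed to 976 and 993 FPKM on Day 0 and to 206 and 113 FPKM on Day 3, and the oligodendrocyte markers to 1076 and 789 FPKM and to 19007 and 26918 FPKM. From Day 0 to Day 3, the 8 astrocyte markers summed to 148, 168, 133 and 152 FPKM in the replicate 1 libraries. In the replicate 2 libraries the sum rose with day, at 423, 527, 649 and 962 FPKM. *Gfap* alone held 154, 317, 409 and 603 FPKM of these sums, and not every marker rose. *Gfap* was higher on Day 3 than on Day 0 in both series, at 45.5 against 14.7 FPKM (replicate 1) and 603 against 154 FPKM (replicate 2). It was not called between those days (limma adjusted p = 0.457). Of the 8 astrocyte markers, limma called 0 higher (background 12%) and 1 lower (background 26.3%) from Day 0 to Day 3. The lower one, *Sox9*, went from 27.5 to 4.42 FPKM (replicate 1) and from 69.0 to 9.82 FPKM (replicate 2), with a limma adjusted p of 0.0123. The bearing of these astrocyte markers on the changes of the 9 genes was not tested. Of the markers of other cells, 6 of 8 microglial, 3 of 5 endothelial, 2 of 4 mural and 2 of 6 neuronal ones were at 0 throughout, and their sums reached at most 2.51, 0.43, 0.34 and 10.2 FPKM. None of the 9 machinery genes was called different between the replicate series by limma, against 1.05% of all genes. At an unadjusted p under 0.05 the number was 0 as well, a threshold at which all genes were not counted.

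Read depth, inferred from the spacing of low FPKM values, was 960000 to 1530000 fragments per library. For 8 of the 9 genes a length was chosen that brought the fragments to whole numbers, within 0.083, so that this closeness is no check of the lengths. For *Secisbp2l* no such length was found, and its longest annotated transcript, of 6797 bases, was assumed. *Secisbp2l* rested on about 266 to 2712 fragments per library and *Sephs1* on 57 to 242. The other 7 genes rested on 2 to 59 fragments, *Pstk* being the lowest.

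**Figure D2:**
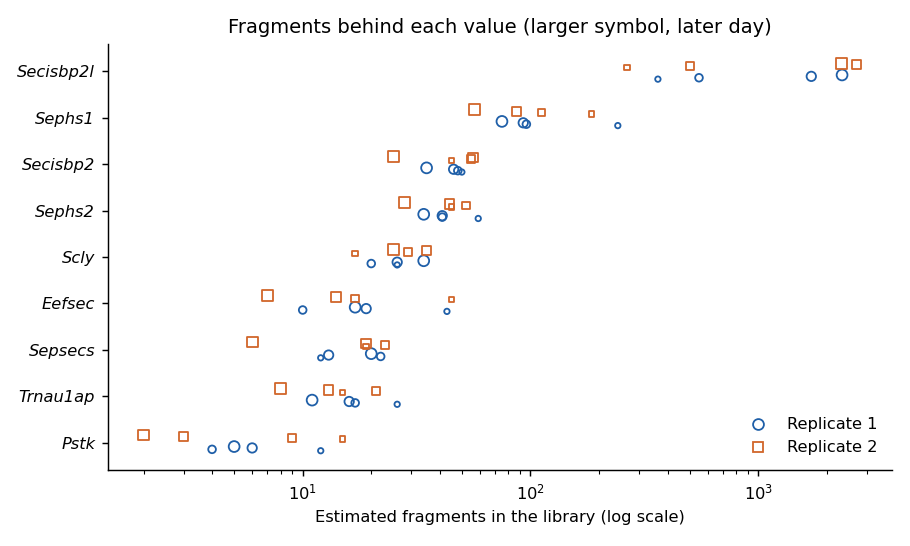
Estimated number of fragments behind each value (x axis, log scale) for the 9 genes (rows), with circles for replicate 1, squares for replicate 2 and larger symbols for later days. *Pstk* lies between 2 and 15 fragments and *Eefsec* between 7 and 45, whereas *Secisbp2l* lies between 266 and 2712 at its longest annotated length.

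The readers of the SECIS element were a pair of paralogs with different courses. *Secisbp2l* lies on chromosome 2 (GRCm38, chr2:125736986-125782870, minus strand) and *Secisbp2* on chromosome 13 (chr13:51651697-51684044, plus strand). Their annotated transcripts shared no run of bases longer than 18, far below the 75 bases of a read. The hydrolysis probes that the study designed for them matched no other gene, the first being found in 2 of the 3 annotated transcripts of *Secisbp2l* and the second in 1 of the 6 of *Secisbp2*, and they are printed because they tell the paralogs apart. The first lies across exons 11 and 12 of the 18 exons of *Secisbp2l* (within chr2:125752960-125757202) and the second, antisense to the transcript, lies in exon 9 of the 17 exons of *Secisbp2* (chr13:51673105-51673134), both in coding sequence.

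Sbp2l probe: cacatccagttgtcaccacagccactttcc
Sbp2 probe: ttcggtgattgccctctgtgtcttctttcc

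*Secisbp2l* measured 34.8 and 31.9 FPKM on Day 0, then 66.0 and 57.8 (Day 1), 207 and 300 (Day 2) and 315 and 357 (Day 3). No library of a later day lay within the range of an earlier day. From Day 0 to Day 3 the log2 change was 3.29 (SE 0.19, limma adjusted p = 4.78e-05), the 98th largest of the 12208 genes. By steps, limma called the rise from Day 0 to Day 1 (log2 change 0.87, SE 0.19, adjusted p = 0.0184) and that from Day 1 to Day 2 (2.00, SE 0.19, adjusted p = 0.0033). The 0.43 from Day 2 to Day 3 was not called (SE 0.19, limma adjusted p = 0.34). Fitted on Day 1 and Day 2 alone, the second step had a limma adjusted p of 0.0922, and 0 of the 12208 genes were called. The call of the first step was lost without any 1 of its 4 libraries, at adjusted p of 0.0934 and 0.136 without Day 0 replicate 1 or 2 and 0.0847 and 0.0588 without Day 1 replicate 1 or 2.

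*Secisbp2*, which encodes the protein that carries out the incorporation, measured 11.2 and 12.6 FPKM on Day 0, then 13.4 and 14.8 (Day 1), 13.0 and 14.4 (Day 2) and 11.0 and 8.96 (Day 3). Both Day 3 libraries lay below both Day 0 libraries, by a margin smaller than the gap between the replicates of either day. The log2 change from Day 0 to Day 3 was -0.23 with a 95% interval from -0.69 to 0.22 (limma adjusted p = 0.382), and it turned to 0.0557 after median ratio scaling. Its means on the middle days exceeded those on the end days by 0.33 on the log2 scale, which also missed the threshold (limma, SE 0.14, adjusted p = 0.211). At 25 to 56 fragments per library, the ratio of Day 3 to Day 0 had an exact binomial 95% interval of 0.605 to 1.19 for counting error alone. That interval holds both a fall and a rise, and the smallest change that could be detected was not tested.

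The ratio of *Secisbp2l* to *Secisbp2* was 3.11 and 2.53 on Day 0, then 4.91 and 3.91 (Day 1), 16.0 and 20.7 (Day 2) and 28.6 and 39.9 (Day 3). In both replicate series it was higher on each day than on the day before. FPKM corrects for the transcript length that the authors' gene model gave, and the steps of *Secisbp2* corresponded to a length of 2914 bases, where the nearest annotated transcript had 3328 bases.

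The elongation factor gene *Eefsec* (chr6:88257334-88446539, minus strand), whose protein brings the selenocysteine tRNA to the ribosome, measured 10.5 and 13.7 FPKM on Day 0, then 3.04 and 4.96 (Day 1), 5.82 and 3.92 (Day 2) and 5.82 and 2.73 (Day 3). Both Day 0 libraries lay above all 6 later ones, and the later days overlapped one another. The log2 change from Day 0 to Day 1 was -1.40 (SE 0.37, limma adjusted p = 0.0451) and that from Day 0 to Day 3 was -1.36 (SE 0.37, limma adjusted p = 0.0216). The fragments were 43 and 45 on Day 0 and 17 and 7 on Day 3, a ratio of 0.367 with an exact binomial 95% interval of 0.224 to 0.583 for counting error. Without Day 0 replicate 1, Day 0 replicate 2 or Day 3 replicate 2, the call from Day 0 to Day 3 was lost, with limma adjusted p of 0.0668, 0.133 and 0.121 and changes of -1.54, -1.19 and -0.93. The Day 1 call was lost in 13 of 17 alternative settings, among them leaving out either library of Day 0 (adjusted p = 0.141 and 0.253), Day 1 (0.183 and 0.0853) or Day 2 (0.0629 and 0.0615).

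The genes that act on the selenocysteine tRNA were low, at 15.0 FPKM or less in every library. *Pstk* (chr7:131371141-131394482, plus strand), whose product phosphorylates the serine on the tRNA, measured 6.93 and 10.8 FPKM on Day 0, then 2.89 and 6.23 (Day 1), 4.36 and 2.00 (Day 2) and 4.06 and 1.85 (Day 3). The Day 3 libraries lay below the Day 0 libraries, and every library of Day 1 to Day 3 lay below both of Day 0. The log2 change from Day 0 to Day 3 was -1.35 (SE 0.46, limma adjusted p = 0.0495). This value lay at the threshold, and 13 of 17 alternative settings gave an adjusted p from 0.0502 to 0.241. They included leaving out Day 0 replicate 1 (0.0938), Day 0 replicate 2 (0.241), Day 2 replicate 1 (0.0515), Day 2 replicate 2 (0.0502) or Day 3 replicate 2 (0.24). *Pstk* rested on 12 and 15 fragments on Day 0 and on 5 and 2 on Day 3, with a ratio of 0.349 and an exact binomial 95% interval of 0.128 to 0.822 for counting error.

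On the opposite strand, *Ikzf5* shares 4652 exon bases with *Pstk*, and the use of strand in the counting is not given in the sources used here. *Ikzf5* measured 29.6 and 23.8 FPKM on Day 0 and 23.4 and 25.2 FPKM on Day 3. The length in the steps of *Pstk*, 1130 bases, lay nearest to annotated *Pstk* transcripts of 1116 and 1135 bases, of which 0 bases were shared with exons of *Ikzf5*.

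*Sepsecs* (chr5:52640087-52669708, minus strand), the gene of the synthase that acts after PSTK, measured 4.06 and 8.04 FPKM on Day 0, then 9.32 and 9.34 (Day 1), 5.54 and 7.41 (Day 2) and 9.52 and 3.25 (Day 3). The Day 3 libraries lay on either side of both Day 0 libraries. In the replicate 1 series the log2 difference of Day 3 from Day 0 was 1.06 and in the replicate 2 series it was -1.09. Across both it was -0.02 with a 95% interval from -1.05 to 1.02 (limma adjusted p = 0.982), and it turned to 0.25 after median ratio scaling.

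*Trnau1ap* (chr4:132311763-132329538, minus strand), the gene of the tRNA-associated protein, measured 15.0 and 10.8 FPKM on Day 0, then 12.3 and 14.5 (Day 1), 11.6 and 8.64 (Day 2) and 8.92 and 7.39 (Day 3). The first 2 days overlapped, and both Day 3 libraries lay below both Day 0 libraries. Its log2 change from Day 0 to Day 3 of -0.59 did not pass the test (SE 0.25, limma adjusted p = 0.0941). After median ratio scaling the change was -0.30. With FPKM as deposited, the slope of log2(FPKM + 1) on day was -0.22 per day. Its two-sided exact permutation p was 0.0294 over the 2520 arrangements of the libraries.

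The selenophosphate synthetase paralogs differ at the codon for the catalytic residue. In the GENCODE M21 transcripts, codon 63 of 452 of *Sephs2* is a TGA, read as selenocysteine, so that the gene is itself a selenoprotein gene, and the aligned codon 29 of 392 of *Sephs1* is ACA, a threonine codon. Of 391 aligned codons, 294 (75.2%) encode the same residue in both. The 27 bases around the codon are shown 5′ to 3′ on the coding strand because they hold the difference between the paralogs, with the codon in capitals. The *Sephs* windows lie at chr7:127273719-127273745 (minus strand, the single exon of *Sephs2*) and chr2:4884485-4884511 (plus strand, exon 2 of 9 of *Sephs1*) of GRCm38.

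Sephs2: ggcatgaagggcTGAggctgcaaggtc
Sephs1: gaactgaaaggcACAggctgcaaagtg

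*Sephs1* measured 29.7 and 28.4 FPKM on Day 0, then 14.7 and 16.5 (Day 1), 14.4 and 12.3 (Day 2) and 12.9 and 11.2 (Day 3). The Day 0 libraries stood above all later ones. The log2 change from Day 0 to Day 3 was -1.20 (SE 0.18, limma adjusted p = 0.00136), and in all 17 alternative settings it stayed past the threshold. Most of the difference lay in the first step, with -0.86 from Day 0 to Day 1 (SE 0.18, limma adjusted p = 0.0174). That call was lost without any 1 of its 4 libraries, at adjusted p of 0.121 and 0.101 without Day 0 replicate 1 or 2 and 0.0797 and 0.0624 without Day 1 replicate 1 or 2. The fragments behind these values were 242 and 185 on Day 0 and 75 and 57 on Day 3.

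*Sephs2* measured 17.6 and 16.8 FPKM on Day 0, then 15.3 and 18.6 (Day 1), 15.4 and 15.2 (Day 2) and 14.3 and 13.4 (Day 3). It spanned the narrowest range of the 9 genes, and both Day 3 libraries lay below all others. The log2 change from Day 0 to Day 3 was -0.30 with a 95% interval from -0.70 to 0.11 (limma adjusted p = 0.219), which differed from the median change of all genes by 0.02. Its slope was -0.10 per day (two-sided exact permutation p = 0.0135). The change from Day 0 to Day 3 was 0.0021 after median ratio scaling.

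The ratio of *Sephs1* to *Sephs2* was 1.68 and 1.69 on Day 0, then 0.960 and 0.883 (Day 1), 0.930 and 0.811 (Day 2) and 0.905 and 0.835 (Day 3). *Sephs1* was the higher of the pair in both libraries of Day 0 and the lower in all 6 later libraries. The slope of the difference of the log2 values on day was -0.28 per day (two-sided exact permutation p = 0.0159). The longest run of bases shared by their transcripts was 21.

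*Scly* (chr1:91298338-91321075, plus strand), the selenium recycling enzyme, measured 7.68 and 6.28 FPKM on Day 0, then 7.39 and 10.3 (Day 1), 9.67 and 11.9 (Day 2) and 14.1 and 11.8 (Day 3). Neighbouring days overlapped, while both Day 3 libraries lay above both Day 0 libraries. The log2 change from Day 0 to Day 3 was 0.81 (SE 0.25, limma adjusted p = 0.0324), with 0.80 in the replicate 1 series and 0.82 in the replicate 2 series. The call was lost without any 1 of the 4 libraries compared, at limma adjusted p of 0.0763 and 0.162 without Day 0 replicate 1 or 2 and 0.128 and 0.0636 without Day 3 replicate 1 or 2, and also when only those days were fitted (0.0506). The slope was 0.27 per day (two-sided exact permutation p = 0.00635). The fragments were 26 and 17 on Day 0 and 34 and 25 on Day 3, a ratio of 1.85 with an exact binomial 95% interval of 1.23 to 2.81 for counting error.

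**Figure D3:**
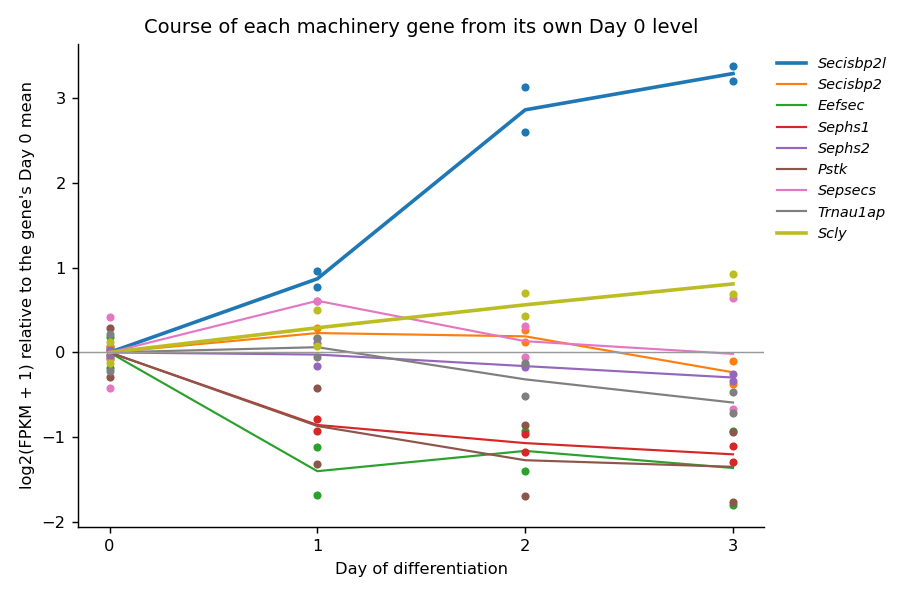
Each gene's log2(FPKM + 1) relative to its own Day 0 mean (y axis) against the day of differentiation (x axis), with points for the libraries and lines for the mean of 2 replicates. On Day 3 the mean of *Secisbp2l* reaches 3.29 and that of *Scly* 0.81. The Day 3 means of the other 7 genes lie at or below -0.02 with FPKM as deposited, though single libraries and earlier days can lie above 0. After median ratio scaling, the Day 3 means of *Secisbp2*, *Sephs2* and *Sepsecs* turn above 0.

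None of the other 8 genes followed *Secisbp2l* in size. When the log2 value of *Secisbp2l* was subtracted from that of each gene within a library, the change from Day 0 to Day 3 of all 8 was below that of *Secisbp2l*, from -2.48 for *Scly* to -4.66 for *Eefsec*. In the replicate series the changes of *Scly* were 0.80 and 0.82 and those of *Secisbp2l* 3.14 and 3.45. All of these differences share the values of *Secisbp2l*, whose change ranked 98th among the 12208 genes, so that a change below it does not mark the machinery. Over all genes tested, the median difference from *Secisbp2l* in this change was -3.61. The slopes of the differences on day ran from -0.92 for *Scly* to -1.63 for *Pstk* per day. No p is given for these slopes, since the rise of *Secisbp2l* is part of every difference. Of the 9 members' own slopes, those of *Secisbp2l* (1.19 per day, p = 7.94e-04, permutation) and *Scly* were above 0 and the other 7 below with FPKM as deposited. *Eefsec*, *Secisbp2* and *Sepsecs* had exact permutation p of 0.0746, 0.32 and 0.761 for slopes of -0.39, -0.07 and -0.05 per day. No correction over the 9 slopes was applied.

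Likeness of course was measured as the root mean square, over the 8 libraries, of the difference from *Secisbp2l* after each gene's log2(FPKM + 1) was taken relative to its Day 0 mean. The 5 genes most like it were *Abca2*, a lipid transporter gene, *Sema6a*, a semaphorin gene, *Sorbs3*, an adaptor protein gene, *Aplp1*, a relative of the amyloid precursor gene, and *Cpox*, a haem synthesis gene, at distances of 0.18 to 0.26. *Abca2* went from a mean of 15.4 FPKM on Day 0 through 30.7 and 115 to 187 FPKM on Day 3. *Scly* was the closest machinery gene at 1.73, rank 1340 of 12207, and *Eefsec* the farthest at 3.31, rank 11006. *Sepsecs*, *Secisbp2* and *Sephs2* were nearer to *Secisbp2l* than the median gene (2.47), at 2.20, 2.24 and 2.40, and *Trnau1ap*, *Sephs1* and *Pstk* farther, at 2.56, 3.12 and 3.27.

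Step by step, 3, 1 and 0 members were called. From Day 0 to Day 1, 1 of 9 members was called higher (*Secisbp2l*, background 5.04% of all genes) and 2 were called lower (*Sephs1* and *Eefsec*, background 7.56%). From Day 1 to Day 2, *Secisbp2l* alone was called higher (background 2.16%), and 0 were called lower by limma (background 1.73%). At an unadjusted p under 0.05 the number lower was also 0, where 2665 of the 12208 genes tested passed in either direction. From Day 2 to Day 3 no member was called by limma, where 0.295% of all genes were. *Secisbp2l* alone of the members had an unadjusted p under 0.05, which 1773 of the 12208 genes tested had. No member was called by limma for a difference of Day 1 and Day 2 from Day 0 and Day 3, where 8.55% of all genes were. There 2 members, *Secisbp2* and *Sephs1*, had an unadjusted p under 0.05, as had 2835 of the 12208 genes tested. A test over only 2 libraries against 2 could not have gone below an exact permutation p of 0.333.

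The order of the levels, on the FPKM scale, changed from Day 0 to Day 3. On Day 0 *Secisbp2l* came first, followed by *Sephs1* and *Sephs2*, and the libraries of each stood apart from those of the next. *Trnau1ap*, *Eefsec* and *Secisbp2* followed with overlapping libraries at means of 12.9, 12.1 and 11.9 FPKM, and *Pstk*, *Scly* and *Sepsecs* came last, also overlapping, at 8.88, 6.98 and 6.05 FPKM. On Day 3 *Sephs2*, *Scly* and *Sephs1* overlapped in the places after *Secisbp2l*, at means of 13.8, 13.0 and 12.1 FPKM. *Secisbp2* followed at 9.99 FPKM. Its libraries, at 11.0 and 8.96 FPKM, lay narrowly between the lower one of *Sephs1* (11.2 FPKM) and the higher one of *Trnau1ap* (8.92 FPKM). *Trnau1ap*, *Sepsecs*, *Eefsec* and *Pstk* came last at 8.16, 6.39, 4.27 and 2.96 FPKM, each overlapping the next. *Secisbp2l* made up 25.3% and 22.9% of the summed FPKM of the 9 genes on Day 0, then 45.7% and 37.8% (Day 1), 72.2% and 79.8% (Day 2) and 79.6% and 85.5% (Day 3).

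The products and helpers of the machinery were counted from lists of genes. Of 23 selenoprotein genes listed, 22 were found in the table, *Gpx2*, *Dio1* and *Dio3* were listed at 0 in every library and the other 19 were tested. From Day 0 to Day 3 limma called 4 higher and 7 lower, with a median change of 0.14 against -0.31 for all genes. The share called was 4 of 19 higher against 12% of all genes and 7 of 19 lower against 26.3%. After median ratio scaling the counts were 6 higher (17.5% of all genes) and 5 lower (16.8% of all genes). With the replicate block they were 3 higher (13.2% of all genes) and 7 lower (29.1% of all genes). *Selenok* was lost with the block (limma adjusted p = 0.0458 without it and 0.0517 with it). *Gpx4*, the phospholipid hydroperoxide peroxidase, rose by 1.12 on the log2 scale (limma adjusted p = 0.00634), from 115 and 73.1 FPKM on Day 0 to 222 and 182 FPKM on Day 3. *Selenoi*, which encodes an ethanolamine phosphotransferase of phospholipid synthesis, rose by 0.99 and *Selenot*, which encodes a thioredoxin-like protein of the endoplasmic reticulum, by 0.58 (limma adjusted p = 0.0137 and 0.00972).

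The selenoprotein genes that fell most were *Gpx3*, the secreted glutathione peroxidase, *Selenoh*, which encodes a nuclear selenoprotein, and *Txnrd3*, a thioredoxin reductase gene. *Gpx3* went from 34.4 and 29.0 FPKM on Day 0 to 1.21 and 2.06 FPKM on Day 3, a log2 change of -3.65. *Selenoh* went from 167 and 165 FPKM to 15.4 and 10.8 FPKM, a log2 change of -3.59. *Txnrd3* was low throughout, at 1.61 and 2.61 FPKM on Day 0 and 0 and 0.37 FPKM on Day 3. *Dio2*, the deiodinase that activates thyroid hormone, stayed at 2.33 FPKM or less in all libraries and its difference of 0.97 did not pass the test (limma adjusted p = 0.122).

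Of 16 accessory genes listed, which charge, modify or transcribe the selenocysteine tRNA, bind SECIS elements, assemble the complexes or take up selenoprotein P, 15 were tested. From Day 0 to Day 3 limma called 0 higher (background 12%) and 8 lower (background 26.3%), with a median change of -0.75. At an unadjusted p under 0.05, 0 were higher and 10 lower, where 5864 of the 12208 genes tested passed in either direction. After median ratio scaling 5 were called lower (background 16.8%), and with the replicate block 9 were (background 29.1%). *Sars*, the seryl-tRNA synthetase gene, was added with the block (limma adjusted p = 0.0849 without it and 0.0244 with it). The largest falls were those of *Ruvbl2* and *Ruvbl1*, ATPase genes of RNP assembly, at -1.31 and -1.05, and *Ncl*, the nucleolin gene, at -1.22. *Ruvbl2* measured 77.1 and 66.7 FPKM on Day 0 and 26.3 and 30.5 FPKM on Day 3, and *Ncl* 98.3 and 101 FPKM and 48.0 and 36.9 FPKM.

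**Figure D4:**
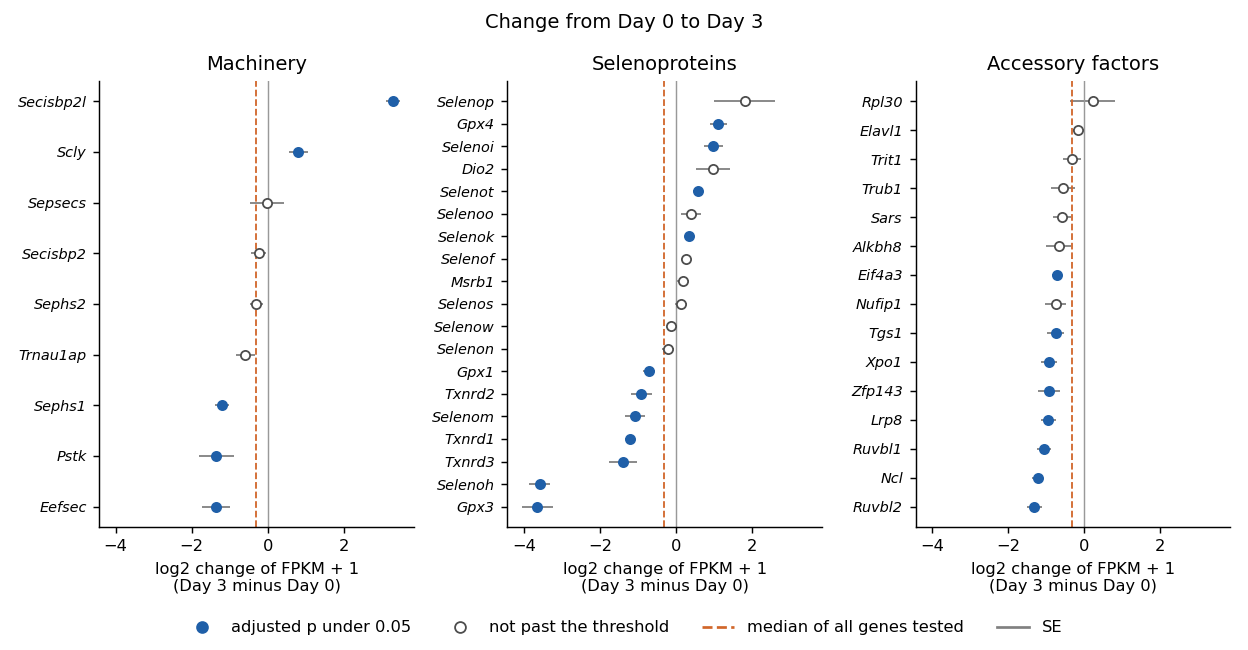
Log2 change of FPKM + 1 from Day 0 to Day 3 (x axis, Day 3 minus Day 0, with standard error bars) for the tested genes of the machinery, the selenoproteins and the accessory factors (rows), with filled points for an adjusted p under 0.05 and a dashed line at the median of all genes tested, -0.31. Of the 9, 19 and 15 genes, 2, 4 and 0 are called higher and 3, 7 and 8 lower.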

How the data were processed

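RNA of primary mouse OPCs was measured on 4 days with 2 replicates each. The authors made the libraries with a stranded mRNA kit, used OmicSoft ArrayStudio for the reads and deposited FPKM per gene, not pooled, with a genome build of mm10 per the submitters' notes. The gene model and the use of strand in counting are not given in the sources used here, and the labels and methods describe the medium and the RNA kit differently. A count test was not used, since the values are FPKM. Days and replicate numbers came from the labels. The depth of each library was inferred from the spacing of low FPKM values. The length behind each gene but *Secisbp2l* was chosen so that its fragments came out near whole numbers. For *Secisbp2l* the longest annotated transcript, of 6797 bases, was used. Depth limited precision most for genes with few fragments. The exact binomial intervals cover counting error only, whereas the intervals of log2 changes were taken from the limma standard error.

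Of the 23427 entries, 21431 matched GENCODE M21 (GRCm38, the same assembly as mm10) by symbol and chromosome, from which coordinates and sequences were taken, and older selenoprotein symbols were matched through synonyms. log2(FPKM + 1) of genes that reached an FPKM of 1 in 2 or more libraries was fitted in R 4.3.3 with limma 3.58.1 (lmFit, eBayes with a trend), with 1 coefficient per day, and p-values were adjusted by Benjamini and Hochberg's method over all genes tested. The script was tested on simulated data. The limma fit of differences from *Secisbp2l* gave its values only, and its p-values are not reported, because all genes share the error of *Secisbp2l* there and the moderation counts it as independent. Slopes were tested by enumerating arrangements of the libraries in Python 3.11.15 (scipy 1.17.1, numpy 2.4.6, pandas 2.3.3). The members and gene lists were chosen with earlier results of these data known. All members, the 5 genes most like *Secisbp2l*, and, of each list, the 3 largest rises and falls among called genes, with *Gpx4* and *Dio2*, were named. *Gfap* was named too, and *Ikzf5*, *Selenok*, *Sars* and *Sox9* were chosen after their values were seen.

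Alternatives were a pseudocount of 0.1, no filter, a stricter filter (FPKM 10 in any 1 library), median ratio scaling, equal library sums, quantile normalization, eBayes with no trend, a replicate block, fits of the compared days alone, and leaving out each library. With each library left out in turn, the lone library of that day was assumed to vary like the others. The pairing of libraries comes from the replicate numbers in the labels. The difference between replicates correlated between days across genes in all 6 pairs of days (r from 0.164 to 0.285), and the numbers were taken to pair the libraries. The replicate block was then an alternative, under which *Sephs1* changed by -1.20 (adjusted p = 0.00127).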

Additional observations from a re-analysis of the deposited data

How the results depend on the processing

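*Secisbp2l* and *Sephs1* were called between Day 0 and Day 3 in all 17 alternatives, and the changes of the 8 other genes lay below that of *Secisbp2l* in every alternative that gave a value. The other calls depended on single settings or libraries. Of the 9 genes, the number called higher from Day 0 to Day 3 (2) was 1 when only the compared days were fitted and 1 to 2 with each library left out, and the number called lower (3) was 1 after quantile normalization, 2 with a pseudocount of 0.1, no filter, the stricter filter, equal sums, median ratio scaling, no trend or only the days compared, and 1 to 3 with each library left out. From Day 0 to Day 1 the number called higher (1) was 0 without a trend and 0 to 1 with each library left out, and the number called lower (2) was 1 with a pseudocount of 0.1, no filter, equal sums, median ratio scaling, quantile normalization, no trend or only the days compared, and 0 to 2 with each library left out. The alternatives that left out no single library tested 8202 to 15267 genes. From Day 0 to Day 3 they called 1291 to 2135 of all genes higher and 2047 to 3551 lower. From Day 0 to Day 1 they called 406 to 836 higher and 702 to 1100 lower. The call of *Secisbp2l* from Day 1 to Day 2 was lost when only those days were fitted, where 0 of all 12208 genes tested were called. Directions turned for genes that had not passed the test. The change of *Secisbp2* was 0.0557 after median ratio scaling and 0.10 after quantile normalization, that of *Sephs2* was 0.0021 after median ratio scaling, and that of *Sepsecs* was 0.11 with equal sums, 0.25 after median ratio scaling, 0.42 after quantile normalization and -0.67 to 0.64 with each library left out. The cause was not tested. The replicate block left every call of the 9 genes by limma as it was (*Scly* 0.81, adjusted p = 0.0324) and changed 1 call in each of the selenoprotein and accessory lists, while permuting days within replicate numbers gave the slope of *Pstk* (-0.45) an exact permutation p of 0.0556. On ranks, the slope of *Trnau1ap* had an exact permutation p of 0.0548. *Sepsecs* gave no value under the filter of FPKM of at least 10. Few fragments limit *Pstk*, *Sepsecs*, *Trnau1ap* and *Eefsec* most.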
